A study of Mus musculus with 39 samples.

Results

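The acyl-CoA thioesterases described here are Acot1, Acot2, Acot3, Acot4, Acot8, Acot12 and Acot13, 7 of the 18259 genes measured by RefSeq probes on the liver arrays. They were chosen by name, through the RefSeq accession of each probe, and 8 probes of the 25903 tested belonged to them. Acot4 had 2 probes and each other gene had 1. Acot2, Acot1, Acot4 and Acot3, in that order, are 4 neighbouring protein-coding genes on chromosome 12, whereas Acot8 lies on chromosome 2 and Acot12 and Acot13 on chromosome 13.

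Acyl-CoA thioesterases split an acyl-CoA into free coenzyme A and the fatty acid it carried, and so run against the acyl-CoA synthetases. The members differ by where they act and on which chains: Acot1 in the cytosol and Acot2 in mitochondria on long chains, Acot3, Acot4 and Acot8 in peroxisomes, Acot12 on acetyl-CoA in the cytosol, and Acot13, also called Them2, on long chains at mitochondria. In rodent liver the genes of the chromosome 12 cluster are known targets of PPARα, the nuclear receptor that fatty acids activate, and Acot1 is known to rise on fasting.

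Livers came from 39 male C57BL6/J mice, 5 to 6 weeks old at the start and singly housed. AggE mice spent daily 6 hr sessions without food or liquid in a wire cage inside the home cage of an SJL aggressor and met it directly 3 times a session, whereas Ctrl mice went through the same caging and deprivation with no aggressor. Sessions ran for 5 or 10 days, and livers were taken 24 hrs post-5-day stressor (4 Ctrl, 5 AggE), 24 hrs post-10-day stressor (4 Ctrl, 5 AggE), 1.5 wks post-5-day stressor (4 Ctrl, 5 AggE) and 4 wks post-10-day stressor (6 Ctrl, 6 AggE). All groups met an aggressor's cues in a partition test 1 hr before the terminal bleed. Each array compared the liver RNA of 1 mouse (Cy-5) with a common reference RNA pooled from mouse cell lines (Cy-3), so that every value below is a log2 ratio of liver to reference, or a difference of such ratios, AggE minus Ctrl. Levels are compared between groups for 1 probe, never between genes.

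A probe counted as well above background when the scanner software marked its liver signal so. The share of such probes ranged from 14.8% to 56.5% on all arrays but 1, Ctrl mouse 6 at 4 wks, where it was higher, and was 15.3% to 27.7% in AggE and 24.8% to 30.5% in Ctrl mice 24 hrs post-5-day stressor. There were 11 slides and 2 scan days. No slide held both Ctrl and AggE mice of a 24 hr point, so slide and group cannot be told apart there, and at 1.5 and 4 wks 1 slide each held both groups. All 11 hepatocyte markers measured were well above background on every array. The summed Cy-5 signal of these markers 24 hrs post-5-day stressor was 334562 to 382940 in AggE and 282840 to 310618 in Ctrl mice, and none of the 11 was called. Of the lists for other cells in that comparison, Spp1 of the 6 bile duct markers (log2 change 1.28, adjusted p = 0.00408) and Cela2a of the 8 pancreas markers (0.31, adjusted p = 0.0408, not well above background on any of these arrays) were called. Neither passed with slide as a random block (limma, adjusted p = 0.427 and 0.526). Of 5 erythroid markers 4 had a change above 0 (none called by limma, 1 with an unadjusted p at or under 0.05), with summed signals of 12611 to 18844 (median 14062) in AggE and 8017 to 13760 (median 10104) in Ctrl mice. Of 8 Kupffer cell markers 6 had a change above 0 (none called, 1 unadjusted), with summed signals of 4352 to 5854 and 3627 to 4969. The part of these genes in the results below was not tested.

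The genes fell into 2 sets by signal. Acot8, Acot12 and Acot13 were well above background on 39 of 39 arrays and Acot1 on 32. Acot2 and Acot3 were so on 2 arrays each, and Acot4 on 17 by its brighter probe, used below, and 28 by the other. The values of Acot2 and Acot3, and of Acot4 by its brighter probe outside the 4 wk groups, therefore mostly describe background. The 4 neighbouring genes are close paralogs, and no probe sequences were used here, so signal shared between them remains uncertain.

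The stretches before the annotated starts of these neighbours are shown because Acot1 was the only gene of the cluster whose level was called different in any comparison. Each is the 150 bases upstream of the RefSeq start in GRCm38.p6, 5′ to 3′, on the plus strand. Capitals mark the CCAAT box (letters CCAAT), the nuclear receptor half-site (letters AGGTCA) and the E-box (letters CACGTG), searched on both strands. For Acot4 the start is that of the transcript in the promoter table and lies inside the annotated gene (84037254 to 84044723).
Acot2, chr12:83987711-83987860: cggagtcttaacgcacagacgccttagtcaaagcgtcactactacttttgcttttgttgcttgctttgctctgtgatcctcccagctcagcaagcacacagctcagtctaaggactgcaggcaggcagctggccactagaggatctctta
Acot1, chr12:84009352-84009501: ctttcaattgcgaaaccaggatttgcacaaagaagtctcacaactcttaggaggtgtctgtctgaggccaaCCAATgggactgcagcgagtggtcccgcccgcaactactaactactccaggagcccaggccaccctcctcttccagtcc
Acot4, chr12:84038229-84038378: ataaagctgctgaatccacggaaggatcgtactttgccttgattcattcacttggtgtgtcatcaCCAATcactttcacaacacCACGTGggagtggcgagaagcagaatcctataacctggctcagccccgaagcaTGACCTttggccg
Acot3, chr12:84051994-84052143: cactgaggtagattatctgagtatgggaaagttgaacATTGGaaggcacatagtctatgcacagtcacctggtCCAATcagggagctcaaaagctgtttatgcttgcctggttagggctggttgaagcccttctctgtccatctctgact

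CCAAT began 79 bases before the start in Acot1, 85 in Acot4 and 77 in Acot3, with another in Acot3 at 113 on the minus strand, and was not found in this window of Acot2. It was present in 24.5% of the 32851 windows of the same length. AGGTCA, the half-site read by PPARα and other nuclear receptors, was found in Acot4, 13 bases before the start and on the minus strand, against 8.58% of all windows. CACGTG was found only in Acot4 among these 4, against 4.3% of windows. The direct repeat of AGGTCA with 1 base between, the paired form known to bind PPARα, was found in none of the 6 members with an entry and in 0.0304% of all windows, and TATAAA in none of the 6 and in 7.57%. These are matches of letters and say nothing of binding.

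At 24 hrs post-5-day stressor Acot1 fell in AggE mice to 0.450 of the Ctrl level. The log2 ratios were 0.88, 0.76, 0.62 and 0.69 in the 4 Ctrl mice. They were -0.80, -0.28, -0.44, -0.88 and 0.32 in the 5 AggE mice. Every AggE mouse lay below every Ctrl mouse, and AggE mouse 5, on another slide than the other 4, was closest to them. The change was -1.15 (SE 0.24, 95% confidence interval -1.64 to -0.66, limma's moderated test with Benjamini-Hochberg adjustment over 25903 probes, adjusted p = 0.00708). On 3 of the 5 AggE arrays the probe was not well above background, against 0 of the 4 Ctrl arrays. In bulk liver, fewer cells that express a gene and less RNA per cell cannot be told apart.

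**Figure D1:**
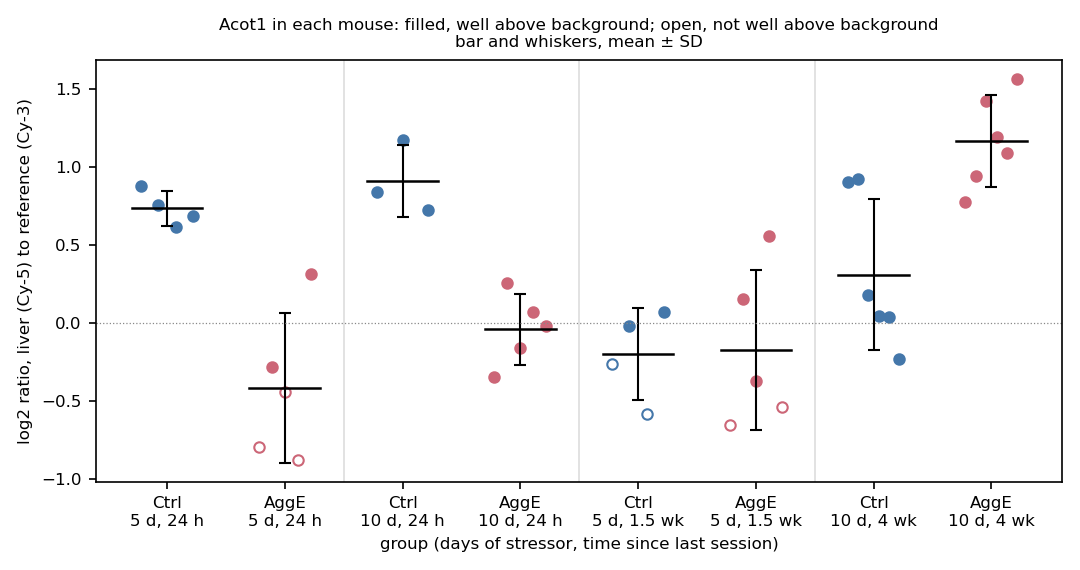
Log2 ratio of Acot1 in liver (Cy-5) to reference RNA (Cy-3) in each mouse, by group, with blue points for Ctrl and red points for AggE mice, open points where the probe was not well above background, and the mean ± SD in black. AggE mice lie below all Ctrl mice at both 24 hr points, overlap them at 1.5 wks, and at 4 wks lie mostly above them (0.77 to 1.57 against -0.23 to 0.92).

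Without AggE mice 3 and 4, whose arrays had the fewest probes well above background, the change was -0.99 (limma, adjusted p = 0.0387). Leaving out each of the 9 arrays in turn gave -1.34 to -1.04, and all 9 fits kept the call. The call was lost when slide was a random block (-1.02, adjusted p = 0.392), without normalization between arrays (-1.02, adjusted p = 0.112), and in a fit of these groups alone (-1.15, adjusted p = 0.0589). The size depended on the background correction, with -1.64 without one, -2.14 from the processed signals and -2.50 from the deposited ratios (limma, adjusted p = 0.00683, 0.0117 and 0.0212).

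Acot8, a peroxisomal thioesterase of broad chain length, was next in size among genes with clear signal at this point. Its log2 ratios were 1.04, 1.22, 0.91 and 1.04 in Ctrl mice and 0.75, 0.69, 0.71, 0.77 and 0.57 in AggE mice. Again no AggE mouse reached the lowest Ctrl mouse, but the change of -0.36 (SE 0.11, interval -0.57 to -0.14) did not pass the adjustment (limma, unadjusted p = 0.00229, adjusted p = 0.06). Of 25 alternatives it passed in the Cy-5 signal alone (-0.55, adjusted p = 0.0194) and with array weights (-0.35, adjusted p = 0.0407). It did not pass in the others, which included each of the 9 arrays left out, slide as a random block (-0.38, adjusted p = 0.532) and the processed signals (-0.20, adjusted p = 0.607).

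Acot13 and Acot12 varied more between mice than between groups 24 hrs post-5-day stressor. Acot13 was 0.69 ± 0.43 (SD, n = 4) in Ctrl and 0.57 ± 0.16 (SD, n = 5) in AggE mice, a change of -0.12 (interval -0.67 to 0.43). Acot12 was 2.77 ± 0.38 (n = 4) and 2.58 ± 0.71 (n = 5), a change of -0.19 (SE 0.43). Acot2, Acot3 and Acot4 by its brighter probe were not well above background on any of the 9 arrays, and no fold is given for them.

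In all, 1 of the 7 members was called at this point, against 3.03% of all genes, and 1 passed 2-fold with an unadjusted p at or under 0.05, against 0.29%. Ranges did not overlap for 2 members, Acot1 and Acot8, against 7.39% of all genes. With slide as a random block, 10 probes were called in this comparison in place of 803. Without Ctrl mouse 1, 2, 3 or 4 in turn, 365, 449, 507 and 298 were. All 7 fitted changes were below 0, with a median of -0.19 beside 0.00 over all genes, but 3 of the 7 rest on probes at background. The sign turned in some alternatives for Acot12 (4 of 25), Acot13 (1 of 25), Acot2 (2 of 24) and Acot3 (1 of 24).

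After 10 days of sessions Acot1 was again lower in every AggE mouse than in every Ctrl mouse, but the change did not pass the adjustment. The 3 Ctrl mice that could be read gave 0.84, 1.17 and 0.73, and the spot of Ctrl mouse 3 was an outlier on its array and was left out of the fit. The 5 AggE mice gave -0.35, 0.26, -0.16, 0.07 and -0.02. The change was -0.95 (SE 0.26, interval -1.49 to -0.42, limma, unadjusted p = 0.000961, adjusted p = 0.506), or 0.516 of the Ctrl level. With outlier spots kept it was -1.03 (adjusted p = 0.146), and over all alternatives the change ran from -1.74 (deposited ratios) to -0.82 and the adjusted p from 0.0537 to 1.00. All arrays of this comparison were well above background for Acot1.

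The Acot1 change of the 5-day regimen minus that of the 10-day regimen was -0.20 (interval -0.93 to 0.53, limma, adjusted p = 1.00), which leaves the difference between the regimens known only to within that interval. For this difference 0 of the 7 members were called, against 0.0329% of all genes, and 0 had an unadjusted p at or under 0.05.

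Among the other members 24 hrs post-10-day stressor, Acot8 was 1.16 ± 0.15 (SD, n = 4) in Ctrl and 1.02 ± 0.16 (n = 5) in AggE mice, with overlapping ranges and a change of -0.14 (interval -0.36 to 0.07). Acot12 was 2.46 ± 1.18 (n = 4) and 2.96 ± 0.27 (n = 5), with the Ctrl mice at 3.26, 2.19, 0.91 and 3.49. Acot13, read in 3 Ctrl mice because the spot of Ctrl mouse 3 was an outlier here too, was 0.56 ± 0.62 (n = 3) and 0.61 ± 0.26 (n = 5). Acot4 was well above background on all 9 arrays by its second probe, at 0.60 ± 0.16 (n = 4) and 0.58 ± 0.32 (n = 5), a change of -0.02 (interval -0.44 to 0.39).

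Of the marker lists 24 hrs post-10-day stressor, all 8 Kupffer cell markers had a change above 0 (median 0.38, none called by limma, 2 with an unadjusted p at or under 0.05), with a summed Cy-5 signal of 4207 to 4969 in AggE and 2331 to 4406 in Ctrl mice. Of 7 striated muscle markers, 6 had a change above 0 (median 0.37, none called, 0 with an unadjusted p at or under 0.05), with summed signals of 1018 to 3929 and 1068 to 3316. Of 6 bile duct markers, 5 had a change above 0 (none called, 1 unadjusted), and their summed signals of 1610 to 2537 in AggE and 1245 to 1534 in Ctrl mice did not overlap. Of 5 erythroid markers, 4 had a change above 0 (none called, 1 unadjusted), with summed signals of 6799 to 18970 (median 10179) and 6426 to 8508 (median 6749). Their part in the Acot1 values was not tested.

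With limma 0 of the 7 members were called 24 hrs post-10-day stressor, against 0.0931% of all genes, and 0 passed the 2-fold limit, against 0.17%. Acot1 and Acot3 had an unadjusted p at or under 0.05, the second at background on all 9 arrays. One member, Acot1, had ranges that did not overlap, against 1.86% of all genes.

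At 1.5 wks post-5-day stressor Acot1 was low in both groups. The titles of all 5 AggE mice and of Ctrl mouse 4 carry a 10 where their other labels give 5 days. That of Ctrl mouse 4 also begins with HC, where the titles of all other Ctrl mice in the series begin with C. The 4 Ctrl mice gave -0.26, -0.02, -0.59 and 0.07, and the 5 AggE mice gave -0.66, 0.15, -0.37, 0.56 and -0.54. The ranges overlapped in full on the Ctrl side, and 2 mice of each group were not well above background. The change was 0.03 (SE 0.24, interval -0.46 to 0.52, limma, adjusted p = 1.00), and 0.04 among the arrays of the first scan day. On the slide that held both groups, AggE mouse 5 was 0.25 below the mean of 3 Ctrl mice (-0.54 against -0.29).

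No other member passed the test at 1.5 wks. Acot8 was 0.98 ± 0.25 (SD, n = 4) in Ctrl and 0.89 ± 0.16 (n = 5) in AggE mice, and Acot13 0.82 ± 0.53 (n = 4) and 0.91 ± 0.44 (n = 5). Acot12 was 1.77 ± 0.48 (n = 4) and 2.23 ± 1.04 (n = 5), with AggE mouse 2, on the second scan day, alone at 3.96. With limma 0 of the 7 members were called, against 0% of all genes, 0 had an unadjusted p at or under 0.05, and 0 passed the 2-fold limit, against 0.0383%.

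For the 5-day regimen, the Acot1 change of the early point less that of the 1.5 wk point was -1.18 (SE 0.34, interval -1.88 to -0.49, limma, unadjusted p = 0.00154), and did not pass the adjustment (adjusted p = 0.278). Over the alternatives it ran from -2.86 to -0.91. In that test 0 of the 7 members were called, against 0.0876% of all genes.

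At 4 wks post-10-day stressor the direction was the opposite, and Acot1 rose in AggE mice to 1.81 times the Ctrl level. The lowest, median and highest log2 ratios of the 6 Ctrl mice were -0.23, 0.11 and 0.92. Those of the 6 AggE mice were 0.77, 1.14 and 1.57. In all, 4 Ctrl mice lay below every AggE mouse, whereas Ctrl mice 1 and 2 (0.91 and 0.92) lay within the AggE range. The change was 0.86 (SE 0.21, interval 0.43 to 1.28, limma, adjusted p = 0.0239), and all 12 arrays were well above background.

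On the single slide that held both groups at 4 wks, the 1 AggE mouse was 0.82 above the mean of 3 Ctrl mice (0.77 against -0.05). The call was lost with the slide as a fixed block (0.77, adjusted p = 0.253), as a random block (0.85, adjusted p = 0.0893), without background correction (1.05, adjusted p = 0.0777), and without AggE mouse 3 or Ctrl mouse 3, 4 or 6 (changes over all leave-one-out fits 0.75 to 0.98, adjusted p 0.00582 to 0.0756).

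Acot13 was lower at 4 wks by 0.68 on average without passing the adjustment. Its lowest, median and highest ratios were 0.78, 1.12 and 1.70 in Ctrl and -0.34, 0.62 and 1.26 in AggE mice. As many as 5 of 6 AggE mice lay below every Ctrl mouse, and AggE mouse 1 (1.26) lay inside the Ctrl range. The change was -0.68 (SE 0.23, interval -1.15 to -0.20, limma, unadjusted p = 0.0066, adjusted p = 0.0914), -0.82 without AggE mouse 1 (adjusted p = 0.0231), and -0.04 with the slide as a fixed block (adjusted p = 0.978). On the slide that held both groups, AggE mouse 1 was 0.27 above the mean of 3 Ctrl mice.

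Acot12 had lowest, median and highest ratios of 2.57, 3.33 and 3.66 in Ctrl and 2.17, 2.87 and 3.16 in AggE mice at 4 wks, which overlapped (change -0.55, SE 0.37, limma, adjusted p = 0.418). Its log2 reference signal (Cy-3) was 7.32, 7.22 and 6.81 in AggE mice 1, 2 and 3, against 5.76 to 6.05 on the other arrays of this comparison. The log2 liver signal (Cy-5) was 8.81 to 10.30 in AggE and 8.61 to 9.58 in Ctrl mice, so the lower ratios cannot be read as a lower liver level. Acot8 had 0.64, 0.87 and 1.21 in Ctrl and 0.67, 0.84 and 0.95 in AggE mice, all of the latter within the Ctrl range. Acot4, well above background on all 12 of these arrays, had 0.23, 0.55 and 1.61 in Ctrl and 0.49, 0.74 and 1.70 in AggE mice. Its change was 0.17 by this probe and 0.09 by the other, with 1 high mouse in each group. In all, 1 of the 7 members was called at 4 wks, against 4.06% of all genes, 0 passed the 2-fold limit, against 0.296%, and 0 had ranges that did not overlap, against 1.77%. The count of probes called over the whole array at 4 wks, 910, depended on single mice. It was 138, 153 and 2172 without AggE mouse 3, 2 and 1, and 601, 1871, 221, 392 and 554 without Ctrl mouse 1 to 5 in turn.

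**Figure D2:**
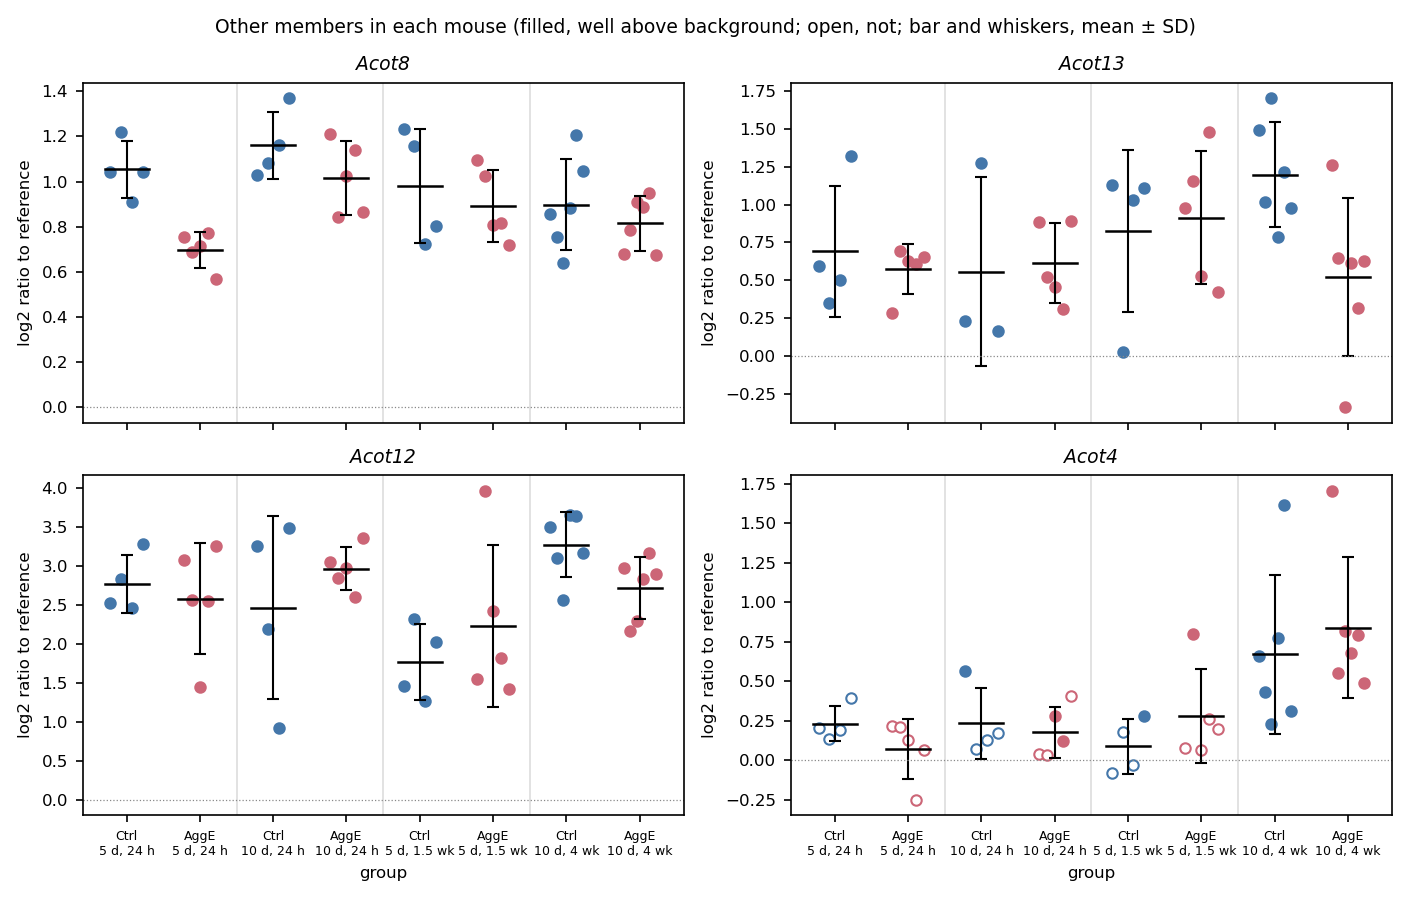
Log2 ratio of liver to reference of Acot8, Acot13, Acot12 and Acot4 in each mouse, by group, with blue points for Ctrl and red points for AggE mice, open points where the probe was not well above background, and the mean ± SD in black. Acot8 is lower in all AggE mice 24 hrs post-5-day stressor (0.57 to 0.77 against 0.91 to 1.22), Acot13 is lower in 5 of 6 AggE mice at 4 wks, and the largest SD within a group, 1.18, is that of Acot12.

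The change of Acot1 differed between the early and late points of the 10-day regimen. The early change less the late one was -1.81 (SE 0.34, interval -2.49 to -1.13, limma, adjusted p = 0.0189), and 1 of the 7 members was called in this test, against 0.0712% of all genes. The time points lie on different slides and scan days, each with its own Ctrl mice. The call was lost without Ctrl mouse 1 or 2 or AggE mouse 1 or 3 of the 24 hr point (changes over all leave-one-out fits -1.93 to -1.68, adjusted p 0.00489 to 0.12), with slide as a random block (-1.80, adjusted p = 0.618) and with the replicate block (-1.78, adjusted p = 0.0638). It was -2.37 from the processed signals (adjusted p = 0.569) and -2.94 from the deposited ratios (adjusted p = 0.294).

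**Figure D3:**
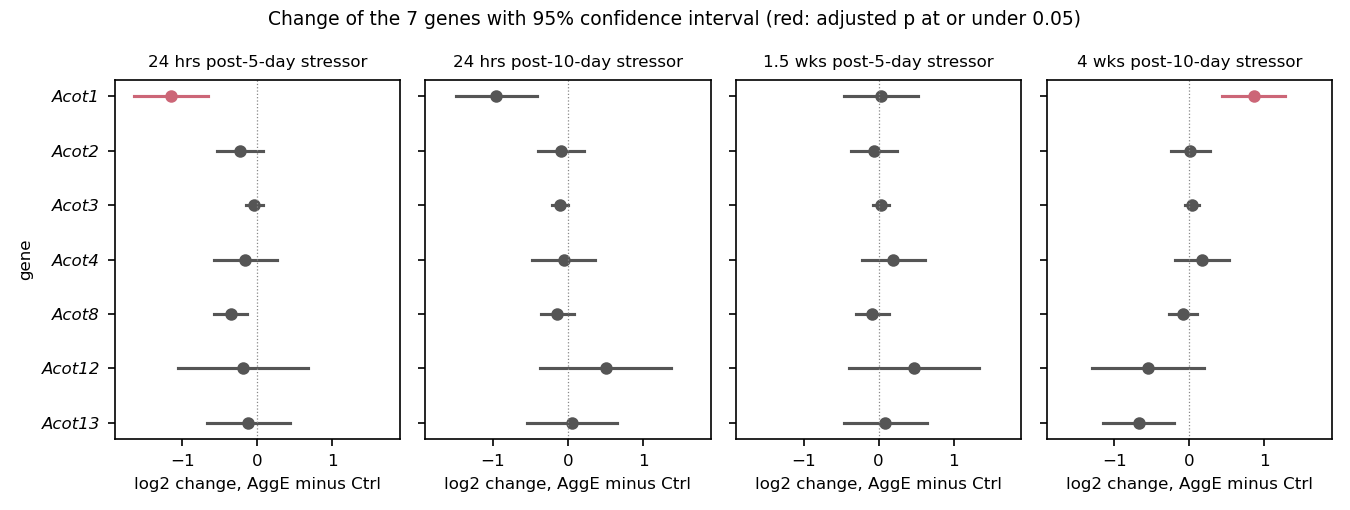
Log2 change, AggE minus Ctrl, of the 7 genes in the 4 comparisons, with 95% confidence intervals, in red where limma's adjusted p was at or under 0.05. Only Acot1 is red, at -1.15 at 24 hrs post-5-day stressor and at 0.86 at 4 wks post-10-day stressor. The values drawn for Acot2 and Acot3, and for Acot4 outside 4 wks, mostly describe background.

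The levels of Acot1 in the 8 groups, given with no test between time points, stood in the following order. From high to low, the group means were 1.17 ± 0.30 (SD, n = 6) in AggE mice at 4 wks, 0.91 ± 0.23 (n = 3) in Ctrl mice 24 hrs post-10-day and 0.74 ± 0.11 (n = 4) in Ctrl mice 24 hrs post-5-day stressor. Ctrl mice at 4 wks followed with 0.31 ± 0.49 (n = 6), then AggE mice 24 hrs post-10-day stressor with -0.04 ± 0.23 (n = 5). The lowest were AggE and Ctrl mice at 1.5 wks with -0.17 ± 0.51 (n = 5) and -0.20 ± 0.29 (n = 4), and AggE mice 24 hrs post-5-day stressor with -0.42 ± 0.48 (n = 5). Each pair of neighbours in this order overlapped within 1 SD. Ctrl mice of the 24 hr points had been deprived of food in sessions until the day before. Those of the later points had not, but the groups also differ in age, time in single housing and slide. All Ctrl mice at 4 wks and 1 of 4 at 1.5 wks differ in scan day as well.

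Over the 8 groups, mean ratios of Acot8 ran from 0.70 (AggE, 24 hrs post-5-day) to 1.16 (Ctrl, 24 hrs post-10-day), those of Acot12 from 1.77 (Ctrl, 1.5 wks) to 3.27 (Ctrl, 4 wks), and those of Acot13 from 0.52 (AggE, 4 wks) to their highest in Ctrl mice of the same point. The median SD within a group was 0.15 for Acot8, 0.29 for Acot1, 0.44 for Acot13 and 0.45 for Acot12.

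Within groups, no correlation passed the test among the 4 genes most often well above background. With group means subtracted, Pearson's r over the 38 or 39 arrays of the 6 pairs ran from -0.27 (Acot8 and Acot13, Spearman's rho -0.25) to 0.20 (Acot8 and Acot12, rho 0.17). By a two-sided permutation test of 100000 draws within groups, no pair passed the adjustment over the 6 pairs (lowest unadjusted p = 0.158, lowest adjusted p = 0.494 for r and 0.533 for rho). Without the 2 arrays farthest out, the pair Acot8 and Acot13 gave -0.36 and the pair Acot8 and Acot12 gave 0.21. Within the first and second scan day they gave -0.16 and -0.45, and 0.10 and 0.39, and with slide means subtracted -0.10 and 0.25. Without normalization between arrays they gave -0.25 and 0.57, and 1 of the 6 pairs passed.

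The genes whose levels followed Acot1 most closely over the same 38 arrays, of 5211 genes well above background on at least 35 arrays, were Prdx6 (r = 0.77), a peroxiredoxin with phospholipase activity, Eif4ebp3 (r = 0.76), an inhibitor of cap-dependent translation, and Snx15 (r = 0.75), a sorting nexin. Acot1 was added to this search after its values were seen. Acot13 was followed by Ndufs1 (r = 0.81), a subunit of respiratory complex I, Ebp (r = 0.79), an enzyme of cholesterol synthesis, and Dph3 (r = 0.77). Acot12 was followed by Palmd (r = 0.78) and Sult1b1 (r = 0.77), a sulfotransferase, and Acot8 by Gatd3a (r = 0.66) and Rnf114 (r = 0.66). These are among the highest of 5211 values for Acot1 and 5210 for each other gene, and the arrays share slides and a reference.

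Other genes that handle acyl-CoA were counted from lists chosen with earlier results of these data known. Of 19 measured PPARα targets and partners, 4 fell and 0 rose 24 hrs post-5-day stressor (median change -0.26), against 3.03% of all genes called. None of the 4 passed with slide as a random block (limma, adjusted p from 0.452 to 0.523). They were the ω-hydroxylases Cyp4a14 (-3.17, SE 0.77, adjusted p = 0.0191), Cyp4a10 (-1.79, SE 0.37, adjusted p = 0.006) and Cyp4a31 (-1.66, SE 0.38, adjusted p = 0.0123), and the retinol saturase Retsat (-0.82, SE 0.22, adjusted p = 0.0323). Near-identical Cyp4a copies may share signal. Ppara itself was at -0.25 (adjusted p = 0.755) and Ehhadh, a β-oxidation enzyme of the peroxisomal list, at -1.10 (adjusted p = 0.0855).

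In the other lists at this point, 0 of 17 genes of mitochondrial β-oxidation were called (limma, 1 with an unadjusted p at or under 0.05), 0 of 15 of glycerolipid synthesis (2 unadjusted) and 0 of 10 other thioesterases (1 unadjusted). Acsl6 of the 13 acyl-CoA synthetases (0.36, adjusted p = 0.0303) and Abcd2 of the 20 peroxisomal genes (0.42, adjusted p = 0.00657) rose, each well above background on at most 2 of 39 arrays. With slide as a random block none of the 8 list and marker genes called at this point passed (limma, adjusted p from 0.368 to 0.598).

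In the comparisons after 10 days at 24 hrs, and at 1.5 wks, limma called no gene of these 6 lists (3 and 6 with an unadjusted p at or under 0.05). Cyp4a14 was at -1.89 and then at 1.97, Cyp4a31 at -1.07 and 1.09, and Retsat at -0.55 and 0.74, each with an unadjusted p at or under 0.05 at both points. Cyp4a31 and Retsat were called in the test of the early change less the 1.5 wk change (-2.75, adjusted p = 0.0251, and -1.56, adjusted p = 0.0305), whereas Acot1 was not. Both calls were lost with slide as a random block (adjusted p = 0.651).

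**Figure D4:**
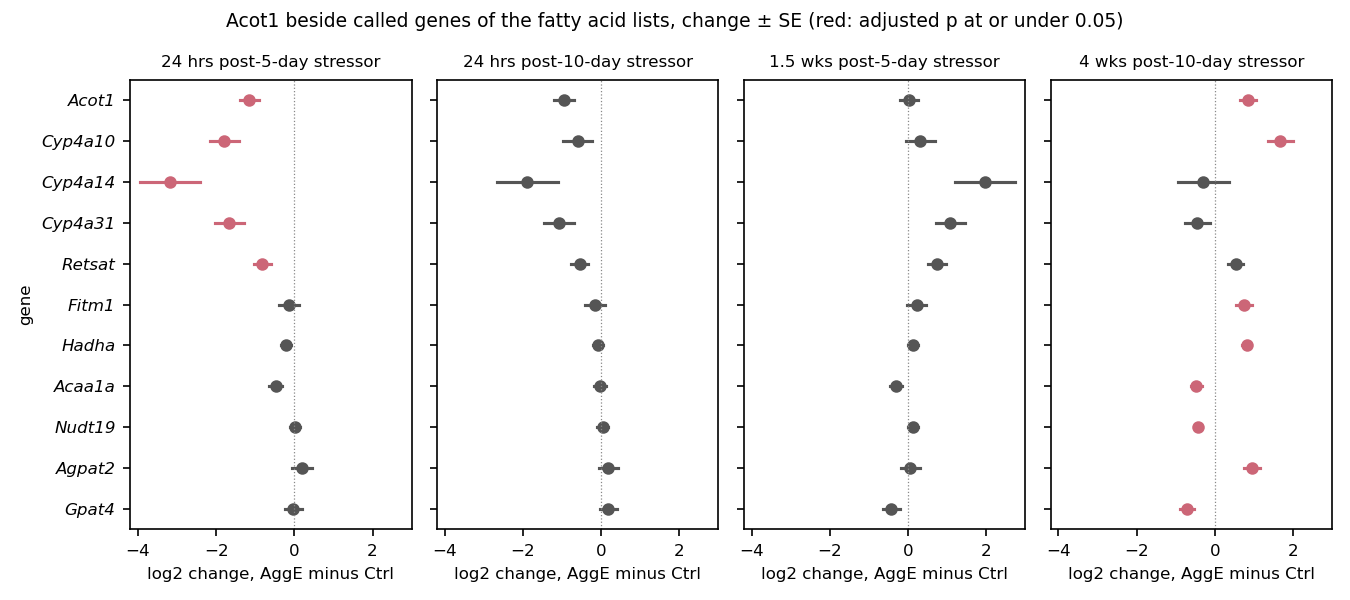
Log2 change ± SE, AggE minus Ctrl, of Acot1 and of 10 of the 12 genes called in the fatty acid lists (Acsl6 and Abcd2 are not drawn), in the 4 comparisons, in red where limma's adjusted p was at or under 0.05. Acot1 and Cyp4a10 are red below 0 at 24 hrs post-5-day stressor and red above 0 at 4 wks post-10-day stressor, whereas Cyp4a14 and Cyp4a31 are red at the first point only.

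At 4 wks, where 4.06% of all genes were called, the list of 19 PPARα targets had 2 genes that rose and 0 that fell, Cyp4a10 (1.68, SE 0.32, adjusted p = 0.0075) and Fitm1 (0.75, adjusted p = 0.0441), which takes part in lipid droplet formation. Both calls were lost with slide as a random block (limma, adjusted p = 0.0749 and 0.266). Cyp4a14 was at -0.29 (adjusted p = 0.867) and Cyp4a31 at -0.44 (adjusted p = 0.47). Of 17 genes of mitochondrial β-oxidation, Hadha, the α subunit of the trifunctional protein, rose (0.81, SE 0.11, adjusted p = 0.000268), and 9 had an unadjusted p at or under 0.05, as had 4103 of the 18259 genes measured. Like Acot1, Hadha was called in the test of the early less the late change of the 10-day regimen (-0.90, limma, adjusted p = 0.0169). That call of Hadha was lost with slide as a random block (-0.80, adjusted p = 0.9998).

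Of 20 peroxisomal genes at 4 wks, the thiolase Acaa1a (-0.48, adjusted p = 0.0496) and Nudt19, a hydrolase of coenzyme A (-0.43, adjusted p = 0.0266), fell and 0 rose. In glycerolipid synthesis Agpat2 rose (0.96, adjusted p = 0.0159) and Gpat4 fell (-0.71, adjusted p = 0.0299) among 15 genes. None of these 4 passed with slide as a random block (limma, adjusted p = 0.110 for Acaa1a, 0.212 for Nudt19, 0.197 for Agpat2 and 0.171 for Gpat4). None of 13 synthetases and 10 other thioesterases was called (limma, 4 of each with an unadjusted p at or under 0.05), with Baat, which joins bile acids to amino acids, at -0.98 (adjusted p = 0.124).

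Of the marker lists at 4 wks, Epcam of the 6 bile duct markers (-0.67, adjusted p = 0.0238) and Lep of the 8 adipose markers (0.31, adjusted p = 0.0341) were called, well above background on 1 and 4 of 39 arrays. Neither passed with slide as a random block (limma, adjusted p = 0.121 and 0.279). Of the 8 adipose markers 7 had a change above 0 (median 0.12), with summed Cy-5 signals of 827 to 1300 in AggE and 760 to 1054 in Ctrl mice. The summed Cy-5 signal of the pancreas markers was 1173 to 1523 in AggE and 986 to 1126 in Ctrl mice. All 6 bile duct markers had a change below 0 (median -0.19), with summed signals of 976 to 1310 in AggE and 1295 to 2089 in Ctrl mice. Of 5 erythroid markers 4 had a change above 0, with summed signals of 1622 to 12355 (median 7986) and 1680 to 6399 (median 2152). Of 7 striated muscle markers 6 had a change above 0 (median 0.29), with summed signals of 701 to 2403 and 795 to 1982. All 11 hepatocyte markers had a change below 0 (median -0.34, none called by limma, 2 with an unadjusted p at or under 0.05). Yet their summed Cy-5 signal was not lower, at 317555 to 364473 (median 350933) in AggE and 264532 to 335148 (median 324442) in Ctrl mice. Their part in the Acot1 change was not tested. With slide as a random block, 11 probes were called at 4 wks in place of 910, and of the 9 list and marker genes only Hadha passed (0.70, limma, adjusted p = 0.0287, the others up to 0.279).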

How the data were processed

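The arrays were 2-colour Agilent 4 x 44k slides with liver RNA in Cy-5 and a reference RNA in Cy-3, with no dye swap. The authors deposited, per array, median spot and background intensities, processed signals and log10 ratios made with Agilent Feature Extraction (11.5.1.1 per the file headers, another version in the methods). The deposited value table gives these log10 ratios to fewer decimals (largest difference 0.005).

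Median intensities were background-corrected by normexp (offset 50), loess-normalized within arrays with controls and outlier spots at weight 0, quantile-normalized between arrays, and averaged per probe (R 4.3.3, limma 3.58.1). Outlier spots were set to missing. Group means of the 8 groups were fitted over 39 arrays to the 25903 RefSeq probes, of which 24375 matched a symbol. Genes with several probes entered by the probe of highest mean brightness. A gene was called at a Benjamini-Hochberg adjusted p at or under 0.05. A gene's name came from its RefSeq accession. The number of arrays limits the precision.

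Replicates are separate mice. Members, lists and tests were chosen with earlier results of these data known. Named genes were the 7 members, called genes of the lists (at most 4 per list and comparison, and others named after their values were seen: Ppara, Ehhadh, Baat and uncalled values of called genes) and the 3 genes most alike each member. The third gene for Acot12 has no symbol here, and 1 gene for Acot8 is not reported here. The description of AggE mice 24 hrs post-5-day stressor, and the titles of all AggE mice and 1 Ctrl mouse at 1.5 wks, name another duration than the source name, which was used. In data simulated for the comparison 24 hrs post-5-day stressor over 25903 probes, 95% of changes of 1 and 100% of changes of 2 on the log2 scale were recovered, with 10 false calls beside them. The simulated noise was independent between arrays, whereas the correlation within slides estimated from the data was 0.32. The simulation therefore does not give the recovery or the false calls where slides differ.

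Alternatives were other background corrections, scalings, probe sets and fits, blocks for slide and replicate number, and leaving out each array. Outlier spots kept, Cy-5 alone, the dim arrays left out, the first scan day alone, the within-slide values and the slide block for list genes were added after seeing the data.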

Additional observations from a re-analysis of the deposited data

Results flagged for a closer look

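One difference between comparisons and 5 single mice stood out. The log2 change of Acot1 24 hrs post-10-day stressor minus its change 4 wks post-10-day stressor was -1.81 (limma, adjusted p = 0.0189).

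Single mice, 5 in all, lay apart from the rest of their group by Dixon's test at the 95% level, of 54 gene and group sets tested, and chance alone gives about 1 in 20 such sets. Acot13 was 0.0275 in Ctrl mouse 2 at 1.5 wks against 1.03 in the next mouse, and 0.29 in AggE mouse 1 at 24 hrs post-5-day stressor against 0.61. Acot4 was 1.70 in AggE mouse 1 at 4 wks against 0.82, and 0.80 in AggE mouse 2 at 1.5 wks against 0.26. Acot2 was 0.37 in AggE mouse 5 at 4 wks against -0.51, 1 of the 2 arrays where its probe was well above background.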

How the results depend on the processing

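The 1 call at 24 hrs post-5-day stressor (Acot1) was kept when any array was left out. It became 0 without normalization between arrays, with Aquantile (which leaves the ratios as they are), in a fit of the contrast's groups alone and when slide was a random block, and 2 (Acot1 and Acot8) with array weights and in Cy-5 alone. The 1 call at 4 wks became 0 without background correction, with offset 16, with processed signals, with the deposited series table, in a fit of its groups alone, with either slide block, random or fixed, and in Cy-5 alone, and 2 (Acot1 and Acot13) with no normalization between arrays, with Aquantile and with array weights. Leaving out arrays gave 0 to 2 calls. The 1 call for the early less the late change of the 10-day regimen became 0 with the first 4 of these settings, with the random block and with the replicate block, and was 0 to 1 without single arrays. The causes were not tested. No setting changed the sign of Acot1 in these 3 results or the count of 0 in the other comparisons. With processed signals, Acot3 went from -0.11 to 0.00616 at 24 hrs post-10-day stressor and from -0.15 to 0.0865 for its early minus late change, at background but for 2 Ctrl arrays at 4 wks. Of 6 pairs of genes, 0 were correlated, and 1 without normalization between arrays.

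Same-numbered Ctrl and AggE mice share only a number: their deviations correlated from -0.45 to 0.50, above 0.1 in 5 of 18 pairs. The replicate block kept Acot1 at -1.34 (adjusted p = 0.017) at 24 hrs post-5-day stressor and 0.86 (adjusted p = 0.0391) at 4 wks. Signal limits Acot2, Acot3 and, by its brighter probe outside 4 wks, Acot4.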
